A study of Sus scrofa with 12 samples.

Results

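The extracellular matrix and matrix remodelling genes were followed in pig muscle over the first day after slaughter. The rule that defines them uses gene symbols and no measured value, but it was chosen with earlier results of these data known. It takes collagens, laminins, thrombospondins, matrix metalloproteinases (MMP), ADAMTS proteases and tissue inhibitors of metalloproteinases (TIMP), with LOX, DCN, LUM, BGN, FMOD, FN1, SPARC, POSTN, FBN1 and ELN. Probe sets with 1 such symbol in the array annotation numbered 86 of 23999 tested and stood for 44 genes of 6765, each represented by its brightest probe set, judged by the mean of 12 arrays. FMOD, ELN and COL1A1 were not among these 44. The animals were 3 female commercial hybrid pigs of about 160 kg from 1 farm, stunned with 87% CO2 and slaughtered at 1 abattoir. Portions of 3 to 5 g were cut from the semimembranosus, a hind-leg muscle used for ham, on the left side. Each pig gave 1 portion at 20 min (T0), 2 h (T1), 6 h (T2) and 24 h (T3) after death, from the same position of the muscle, during chilling of the carcass to 4 °C. An Affymetrix array for pig transcripts was hybridised with each portion's RNA, in 1 colour. This gives 4 times with 3 pigs each, and the 20 min samples serve as the starting point. Repeated portions share an animal, so comparisons over time were made within pigs.

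The extracellular matrix of skeletal muscle is the connective tissue around fibres, bundles and the whole muscle. Fibrillar collagens give it tensile strength, basement membranes of collagen IV and laminin wrap each fibre and vessel, and small proteoglycans such as decorin bind collagen fibrils. MMP and ADAMTS proteases cut matrix proteins, TIMP proteins inhibit them, and matricellular proteins such as thrombospondins signal to cells without bearing load. Fibroblasts make most of this matrix, with contributions from vessel and muscle cells. In meat, collagen content and crosslinking are known for their part in toughness.

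The values are log2 signals, on which a difference of 1 is a 2-fold difference. Because probe sets differ in how brightly they report, the level of 1 gene cannot be ranked against that of another. Array medians lay between 5.89 and 5.94. Muscle fibre markers, 8 genes including CKM and MYH7, averaged 13.39 to 13.49 on the 12 arrays. Of the 44 genes, 30 lay above the dimmest 40% of probe sets (68.2%, against 80.3% of all genes represented). The 14 dim ones were COL5A2, COL11A1, COL10A1, COL7A1, POSTN, MMP9, MMP3, MMP7, MMP1, MMP13, MMP20, ADAMTS20, ADAMTS6 and TIMP4, with means between 3.103 and 5.16. The array of pig 3 at 20 min stood apart. Fibroblast markers outside the 44 genes, a list of 10, averaged 8.48 there and 7.65 to 8.11 on the other 11 arrays. Macrophage and leukocyte markers, also 10 genes, averaged 7.06 there, the highest of the 12 arrays. Poly-A spike-in controls, which are added to the RNA before labelling, averaged 8.59 to 9.36 on the arrays of pig 1 and 5.69 to 6.92 on those of pigs 2 and 3. Whatever differed in handling with those controls cannot be told apart from a difference between pig 1 and the others.

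The first question was whether transcripts of the matrix changed with time after death. At 24 h, 0 of the 44 genes passed the adjusted threshold of 0.05 in limma, a linear model with time and pig, fitted on all probe sets with Benjamini-Hochberg adjustment. Over all probe sets 1 passed (0.00417%). At 6 h and at 2 h, 0 probe sets passed over the whole array (0% in both). At an unadjusted p under 0.05, 1 gene was higher at 24 h, COL15A1 (all genes: 6.28%), and 4 were lower, ADAMTS1, TIMP1, TIMP3 and POSTN (all genes: 8.71%). The count at 6 h was 1 higher, COL15A1 (all genes: 4.82%), and 3 lower, ADAMTS1, LOX and COL3A1 (all genes: 3.99%). At 2 h it was 0 higher (all genes: 4.02%) and 1 lower, ADAMTS1 (all genes: 4.26%). The shares of matrix genes at 24 h, 2.27% higher and 9.09% lower, were thus below or near those of genes at large, and the 3 lower genes at 6 h (6.82%) were above. Of the markers of macrophages and leukocytes, 7 of 10 were lower at 24 h. With limma 0 passed the adjusted threshold, and 6 were lower and 1 higher at an unadjusted p under 0.05. The mean of these markers was 6.36 to 7.06 on the 20 min arrays and 5.72 to 6.30 on the 24 h arrays. Their part in the changes of the matrix genes was not tested.

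The changes were small and balanced in sign. Relative to 20 min, the mean was higher for 23 genes and lower for 21 at 24 h, higher for 18 and lower for 26 at 6 h, and higher for 24 and lower for 20 at 2 h. Median log2 changes were 0.003 at 24 h, -0.02 at 6 h and 0.02 at 2 h, against -0.01, -0.005 and -0.008 for all genes. At 24 h the 95% interval of the change stayed within 1.5-fold either way for 38 of 44 genes (86.4%, against 93.1% of all genes). All dim genes except POSTN were among these 38. Signals near the floor can give a narrow interval whatever the transcript does. FBN1, FN1, THBS1, THBS2, ADAMTS1 and POSTN had wider or shifted intervals, so a change beyond 1.5-fold was not excluded by their values. The pigs differed: pigs 1, 2 and 3 had median changes of 0.04, 0.07 and -0.11 at 24 h. With the 20 min array of pig 3 left out, so that pigs 1 and 2 remain, the median became 0.08. Without it the 24 h change differed from that on all arrays by over 1.5 times for 19 of 24 named genes, 8 of them with the sign turned. Several of these changes were near 0, where a small shift passes that limit or turns the sign. The same count was not made for other arrays, so it does not set this array apart.

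**Figure D1:**
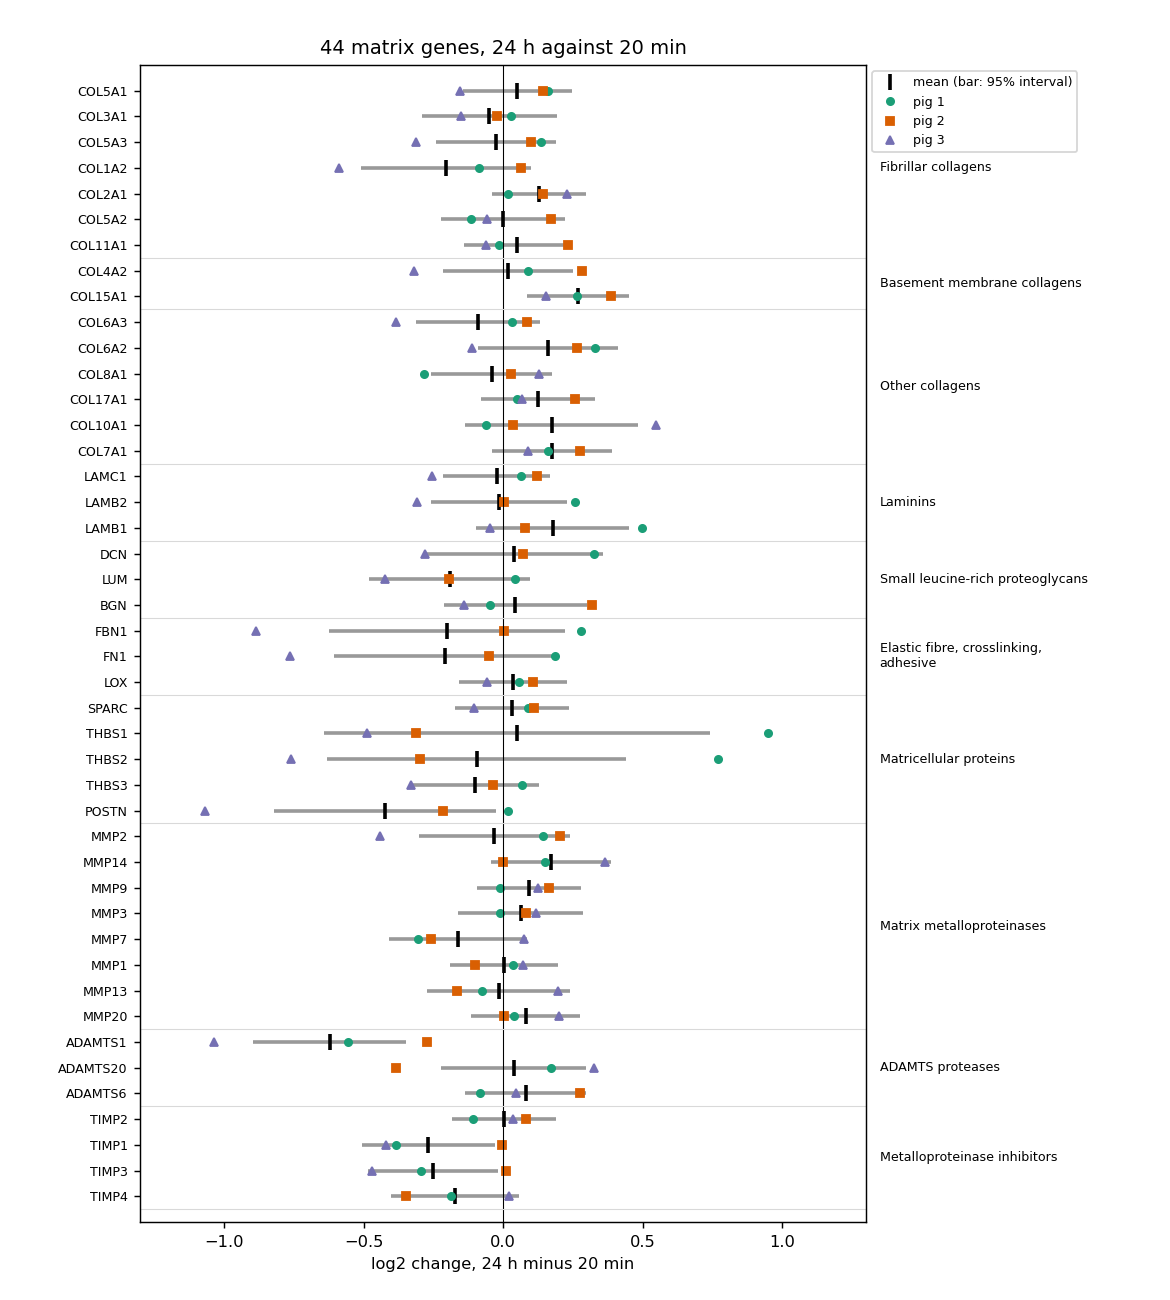
Log2 change from 20 min to 24 h for the 44 matrix genes, ordered by role on the vertical axis and, within a role, by mean signal. Coloured points are the 3 pigs, black ticks their mean and grey bars the 95% limma interval. Most means lie close to 0, pig 3 often lies to the left of the other pigs, and ADAMTS1 has the lowest mean (-0.62).

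Among the fibrillar collagens, which form the tension-bearing fibres, 7 genes were measured and 0 passed the adjusted threshold at any time. COL5A1, a chain of the collagen that controls fibril diameter, read 8.08, 8.19, 8.18 and 8.24 at 20 min, 2 h, 6 h and 24 h in pig 1. It read 7.71, 7.72, 7.68 and 7.86 in pig 2, and 8.08, 8.17, 7.996 and 7.92 in pig 3. Its pigs kept apart more than its times did, and the 24 h change was 0.05 ± 0.18 (SD over 3 pigs, limma adjusted p = 0.833). A dimmer probe set of COL5A1 read 0.31 higher at 24 h, so its 6 probe sets did not give 1 answer.

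COL3A1, the chain of reticular collagen III, read 7.95, 7.94, 7.58 and 7.97 in pig 1 in the same order of times. It read 7.99, 7.52, 7.76 and 7.96 in pig 2, and 7.91, 7.73, 7.74 and 7.76 in pig 3. The 3 values at 6 h all lay below the 3 at 20 min, a change of -0.26 ± 0.10 (limma adjusted p = 0.551), and at 24 h pigs 1 and 2 were back at their starting values. Groups that do not overlap in this direction at 6 h were found for 2 of the 44 genes, COL3A1 and LOX (4.55%, against 3.28% of all genes). The other fibrillar collagens, COL5A3, COL1A2, COL2A1, COL5A2 and COL11A1, had 24 h changes from -0.20 for COL1A2 to 0.13 for COL2A1.

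Basement membrane collagens had 2 members, and both were higher at 2 h and 6 h in all 3 pigs, although 0 passed the adjusted threshold. COL15A1, a collagen that lies at the border of basement membrane and interstitial matrix, read 9.83, 10.08, 9.98 and 10.10 in pig 1. It read 9.19, 9.45, 9.52 and 9.58 in pig 2, and 9.83, 9.84, 10.01 and 9.98 in pig 3. Within each pig every later value was above that at 20 min, while the groups overlapped because pig 2 started lower than the others. The change was 0.17 ± 0.14 at 2 h, 0.22 ± 0.10 at 6 h and 0.27 ± 0.12 at 24 h (1.21-fold, limma adjusted p = 0.260). Genes higher in 3 of 3 pigs at 24 h numbered 5 of 44 (11.4%, against 16.3% of all genes), at 6 h 3 (6.82%, against 16.0%) and at 2 h 8 (18.2%, against 14.0%).

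COL4A2, a chain of the network collagen of basement membranes, read 9.67, 9.87, 9.78 and 9.75 in pig 1. It read 9.85, 10.19, 10.28 and 10.13 in pig 2, and 9.99, 10.05, 10.06 and 9.67 in pig 3. Its change was 0.21 ± 0.14 at 2 h and 0.21 ± 0.20 at 6 h, and at 24 h it was 0.02 ± 0.31, where pig 3 read below its starting value (limma adjusted p = 0.954).

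The 6 other collagens included the collagen VI chains, which form beaded filaments next to the basement membrane. COL6A3 read 10.79, 10.93, 10.95 and 10.82 in pig 1, 10.26, 10.43, 10.52 and 10.35 in pig 2, and 10.85, 10.87, 10.65 and 10.47 in pig 3. COL6A2 read 7.49, 7.85, 7.65 and 7.82 in pig 1, 7.44, 7.74, 7.90 and 7.70 in pig 2, and 8.02, 8.06, 7.82 and 7.91 in pig 3. At 2 h both were higher in all 3 pigs, COL6A3 by 0.11 ± 0.08 and COL6A2 by 0.24 ± 0.17, with limma adjusted p of 0.785 and 0.638. At 24 h the changes were -0.09 ± 0.26 for COL6A3 and 0.16 ± 0.24 for COL6A2. COL17A1, COL10A1 and COL7A1 had 24 h changes of 0.13, 0.17 and 0.17. In this group the mean of all 6 genes was higher at 2 h and at 6 h, by at most 0.24 (all genes: 47.5% and 48.7% higher). Of the 6, 3 were higher in 3 of 3 pigs at 2 h and 0 at 6 h (all genes: 14.0% and 16.0%). At an unadjusted p under 0.05 there were 0 of 6, and COL10A1 and COL7A1 were dim.

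COL8A1, a short-chain collagen of vessel walls, shows how the choice of probe set matters. The brightest of its 4 probe sets had a change of -0.04 at 24 h, and the next, at nearly the same brightness, had one of 0.44.

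**Figure D2:**
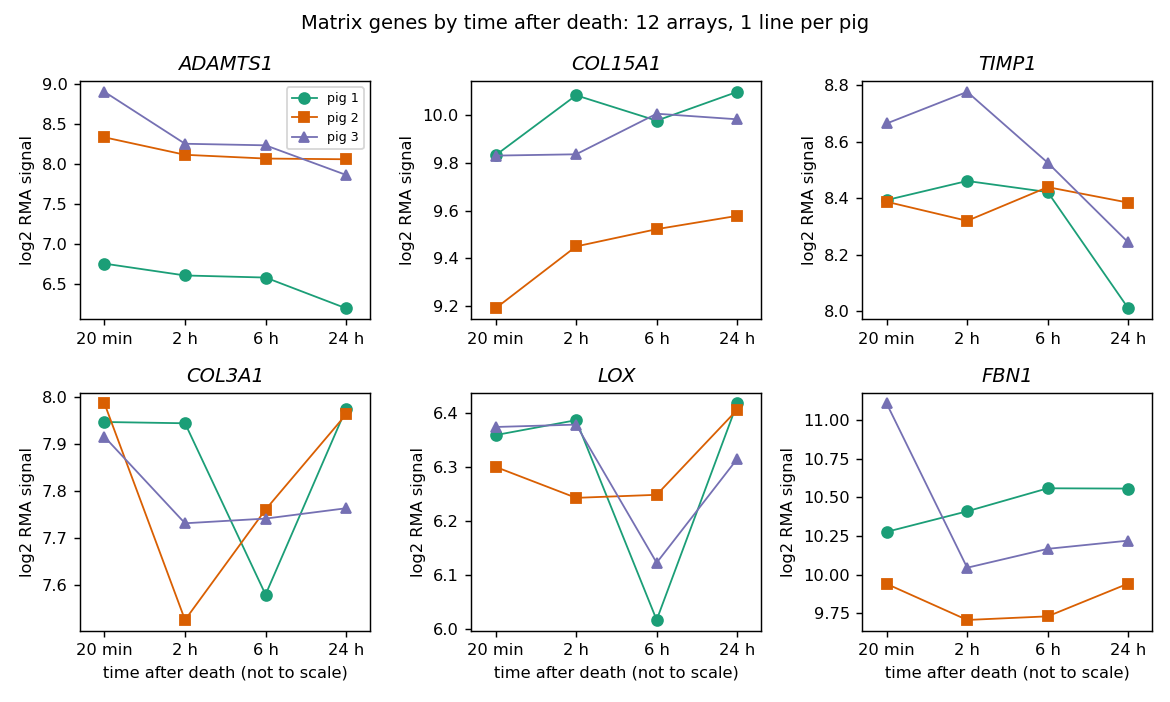
Log2 RMA signal (vertical axis) of ADAMTS1, COL15A1, TIMP1, COL3A1, LOX and FBN1 by time after death (horizontal axis, not to scale), with 1 line per pig. ADAMTS1 lies lower at 24 h than at 20 min in every pig, LOX and COL3A1 are low at 6 h, and FBN1 is high in pig 3 at 20 min (11.11).

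Laminins, the cross-shaped glycoproteins of the basement membrane, had 3 members. LAMC1, the gamma chain shared by most laminins, read 10.35, 10.40, 10.38 and 10.41 in pig 1, 10.16, 10.23, 10.33 and 10.28 in pig 2, and 10.53, 10.47, 10.50 and 10.27 in pig 3. LAMB2, the beta chain concentrated at neuromuscular junctions, read 8.55, 8.68, 8.63 and 8.81 in pig 1, 8.61, 8.496, 8.58 and 8.62 in pig 2, and 8.93, 9.004, 8.97 and 8.62 in pig 3. In both genes pigs 1 and 2 lay at or above their 20 min value at 24 h, and pig 3 lay below it. The 24 h changes were -0.02 ± 0.20 for LAMC1 and -0.01 ± 0.28 for LAMB2 (limma adjusted p = 0.929 and 0.967). LAMB1 had a change of 0.18, with pig 1 at 0.50 and pig 3 at -0.05.

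Of the small leucine-rich proteoglycans, 3 were measured. DCN (decorin), which binds collagen fibrils and TGF-beta, read 12.04, 12.24, 12.44 and 12.36 in pig 1. It read 11.76, 11.42, 11.49 and 11.84 in pig 2, and 12.62, 12.11, 12.05 and 12.34 in pig 3. The pigs differed in direction from 20 min to 6 h, with pig 1 higher by 0.40 and pigs 2 and 3 lower by 0.27 and 0.57, so the mean change of -0.15 ± 0.50 was smaller than its spread. LUM (lumican), which regulates fibril assembly, read 8.91, 8.89, 9.11 and 8.95 in pig 1, 8.73, 8.79, 8.52 and 8.53 in pig 2, and 9.72, 9.09, 9.32 and 9.30 in pig 3. Its 24 h change was -0.19 ± 0.23 (limma adjusted p = 0.548), which came to -0.04 with the 20 min array of pig 3 left out. BGN (biglycan) had a change of 0.04.

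FBN1, the microfibril protein of elastic fibres, and FN1, the adhesive glycoprotein fibronectin, varied most within pig 3. FBN1 read 10.28, 10.41, 10.56 and 10.56 in pig 1, 9.94, 9.71, 9.73 and 9.94 in pig 2, and 11.11, 10.04, 10.17 and 10.22 in pig 3. FN1 read 10.15, 10.29, 10.62 and 10.34 in pig 1, 9.68, 9.24, 9.46 and 9.63 in pig 2, and 10.57, 10.05, 9.82 and 9.80 in pig 3. In both genes pig 1 was higher and pig 3 lower at every later time. The 24 h change was -0.20 ± 0.61 for FBN1 and -0.21 ± 0.50 for FN1 (limma adjusted p = 0.672 and 0.634). With the 20 min array of pig 3 left out the signs turned, to 0.13 for FBN1 and 0.02 for FN1. A second probe set of FBN1 showed the same high reading in pig 3 at 20 min, 9.31 against 8.13 to 8.23 later.

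LOX, the enzyme that crosslinks collagen and elastin, read 6.36, 6.39, 6.02 and 6.42 in pig 1. It read 6.30, 6.24, 6.25 and 6.41 in pig 2, and 6.37, 6.38, 6.12 and 6.32 in pig 3. All 3 values at 6 h lay below all 3 at 20 min and below all 3 at 24 h. The change was -0.21 ± 0.15 from 20 min to 6 h (limma adjusted p = 0.536) and 0.25 ± 0.13 from 6 h to 24 h (limma adjusted p = 0.589). Between 6 h and 24 h, groups without overlap in the higher direction were found for 5 of 44 genes, LOX, COL3A1, COL2A1, MMP20 and ADAMTS6 (11.4%, against 4.04% of all genes), and MMP20 and ADAMTS6 were among the dimmest. COL3A1 cleared narrowly, its lowest value at 24 h being 7.762 and its highest at 6 h 7.760. In that comparison 0 probe sets of the array passed the adjusted threshold, and 8.08% had an unadjusted p under 0.05. At that unadjusted limit 1 of the 44 genes was higher, LOX (2.27%, against 2.62% of all genes), and 1 lower, TIMP1 (2.27%, against 3.86%). In the second LOX probe set 6 h was the lowest time in pig 2 only. It read 7.19 in pig 3 at 20 min and 5.45 to 6.33 on the arrays of later times, a 24 h change of -0.46.

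Of the matricellular proteins, SPARC, a collagen-binding protein of fibroblasts and vessels, was steady. It read 12.63, 12.72, 12.76 and 12.72 in pig 1, 12.20, 12.40, 12.25 and 12.31 in pig 2, and 12.68, 12.45, 12.42 and 12.57 in pig 3, a 24 h change of 0.03 ± 0.12 (limma adjusted p = 0.907). Its 95% interval at 24 h ran from -0.17 to 0.24.

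THBS1, thrombospondin 1, an activator of TGF-beta, read 6.68, 6.72, 7.88 and 7.62 in pig 1. It read 8.65, 8.34, 7.84 and 8.34 in pig 2, and 8.64, 8.63, 8.18 and 8.15 in pig 3. At 20 min and 2 h pig 1 lay well below the other pigs, and at 6 h the 3 pigs lay within 7.84 to 8.18. At 6 h pig 1 read 1.20 above its 20 min value while pigs 2 and 3 read 0.81 and 0.46 below theirs, so the mean change was -0.03 ± 1.08. The 4 dimmer probe sets of THBS1, with means of 3.45 to 5.41, gave no difference of that size in pig 1.

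POSTN (periostin), a fibroblast protein of remodelling tissue, was dim and read 4.81 on the 20 min array of pig 3 and 3.64 to 3.97 on the other 11 arrays. Its 24 h change of -0.42 ± 0.57 (limma adjusted p = 0.363) came to -0.11 with that array left out. THBS3 had a change of -0.10.

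The matrix metalloproteinases cut collagens and other matrix proteins and are made as inactive precursors. Of 8 genes, 6 lay among the dimmest 40% of probe sets. MMP2, the gelatinase of fibroblasts, read 8.31, 8.56, 8.48 and 8.45 in pig 1, 8.01, 8.03, 8.30 and 8.21 in pig 2, and 8.63, 8.52, 8.36 and 8.19 in pig 3. MMP14, the membrane-bound activator of MMP2, read 5.78, 5.57, 5.88 and 5.93 in pig 1, 6.00, 6.01, 5.94 and 6.00 in pig 2, and 5.65, 5.81, 5.81 and 6.02 in pig 3. MMP2 was higher at 24 h in pigs 1 and 2 and lower in pig 3, a change of -0.03 ± 0.36, while MMP14 had a change of 0.17 ± 0.18 (limma adjusted p = 0.932 and 0.473). The other 6, MMP1, MMP3, MMP7, MMP9, MMP13 and MMP20, had 24 h changes from -0.16 for MMP7 to 0.09 for MMP9, with 0 of 8 metalloproteinases at an unadjusted p under 0.05 at any later time against 20 min.

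ADAMTS1, a secreted protease that cuts proteoglycans such as versican and aggrecan, had the smallest p-value of the 44 genes at 24 h. It read 6.76, 6.61, 6.59 and 6.20 in pig 1. It read 8.33, 8.12, 8.07 and 8.06 in pig 2, and 8.90, 8.25, 8.23 and 7.86 in pig 3. Each pig was highest at 20 min and each pig was lower at 2 h, at 6 h and at 24 h, while the groups overlapped because pig 1 lay below both other pigs throughout. The change was -0.34 ± 0.27 at 2 h, -0.37 ± 0.26 at 6 h and -0.62 ± 0.39 at 24 h (1.54-fold lower, limma adjusted p = 0.193). With the 20 min array of pig 3 left out, the changes were -0.17 at 2 h, -0.20 at 6 h and -0.45 at 24 h.

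The direction held in all 3 pigs, but the value did not pass the threshold. Over 23 alternative fits or samples left out, the adjusted p ranged from 0.0789, when the 20 min array of pig 1 was left out, to 0.886 without pig in the model. A second probe set of ADAMTS1 had a change of -0.35 at 2 h, -0.31 at 6 h and -0.43 at 24 h. Genes lower in 3 of 3 pigs at 24 h numbered 2 of 44, ADAMTS1 and TIMP1 (4.55%, against 21.1% of all genes). ADAMTS20 and ADAMTS6 were dim, with means of 3.41 and 3.103. ADAMTS20 read between 3.17 and 3.60 on the 12 arrays and had a change of 0.04 ± 0.37 at 24 h.

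The inhibitors numbered 4. TIMP2, which also takes part in activating MMP2, read 10.13, 10.23, 10.21 and 10.03 in pig 1, 10.34, 10.38, 10.49 and 10.42 in pig 2, and 10.21, 10.08, 10.19 and 10.24 in pig 3. It had a change of 0.003 ± 0.10 at 24 h, with a 95% interval from -0.18 to 0.19. TIMP1, a broad inhibitor, read 8.39, 8.46, 8.42 and 8.01 in pig 1, 8.39, 8.32, 8.44 and 8.38 in pig 2, and 8.66, 8.78, 8.53 and 8.24 in pig 3. All 3 values at 24 h lay below all 3 at 20 min, but in pig 2 by only 0.003. The change was -0.27 ± 0.23 (1.21-fold lower, limma adjusted p = 0.340), and 1 of 44 genes, TIMP1, was without overlap in this direction (2.27%, against 6.02% of all genes).

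TIMP3, the matrix-bound inhibitor that also acts on ADAMTS proteases, read 6.78, 6.77, 6.72 and 6.49 in pig 1, 6.85, 6.74, 6.94 and 6.86 in pig 2, and 6.85, 6.84, 6.64 and 6.38 in pig 3. Its change of -0.25 ± 0.24 at 24 h (limma adjusted p = 0.353) was carried by pigs 1 and 3. The next of its 3 probe sets read 0.10 higher at 24 h and 0.47 higher at 6 h, so the direction for TIMP3 depended on the probe set. For the EF1A control, the gap by which the 3′ probe set exceeds the 5′ probe set, which widens when RNA is broken, differed at 24 h from its 20 min value by 0.38, -0.01 and 0.47 in pigs 1, 2 and 3. In the same pigs the 24 h changes were -0.30, 0.01 and -0.47 for TIMP3, -0.38, -0.003 and -0.42 for TIMP1, and -0.56, -0.27 and -1.04 for ADAMTS1. At 24 h the pigs with the wider gap were those with the larger decreases. The widest gap of the 12 arrays was that of pig 2 at 2 h, 1.11, against 0.63 at 20 min. Between those 2 arrays TIMP3 went from 6.85 to 6.74, TIMP1 from 8.39 to 8.32 and ADAMTS1 from 8.33 to 8.12. The part of RNA quality in the changes of these genes was not tested. TIMP4, which was dim, had a 24 h change of -0.17.

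Other genes that build, bind or cut the matrix were counted as lists. In none of 4 lists did a gene pass the adjusted threshold at 24 h, 6 h or 2 h, while at an unadjusted limma p under 0.05 at 24 h they held 1 higher gene of 35 (2.86%, against 6.28% of all genes) and 7 lower genes (20%, against 8.71%). The list for collagen folding and processing (10 genes) had a median 24 h change of -0.04 and 2 genes lower at an unadjusted p under 0.05. They were led by P4HA2, a collagen prolyl hydroxylase (-0.26 ± 0.16). Cell receptors for matrix (12 genes) had a median of -0.03 and 3 lower, led by SDC2, the heparan sulfate proteoglycan syndecan 2 (-0.47 ± 0.15, limma adjusted p = 0.193). SDC2 read 8.28, 7.94, 8.18 and 7.66 in pig 1, 7.87, 7.50, 7.65 and 7.55 in pig 2, and 8.41, 8.09, 8.12 and 7.95 in pig 3, lower than at 20 min in every pig at every later time. TGF-beta signalling (7 genes) had a median of -0.11 and 0 at an unadjusted p under 0.05. The list of other matrix proteases (6 genes), which also holds BSG, a membrane protein and no protease, had a median of -0.26. In it 1 gene was higher and 2 were lower, and PLAT, the tissue plasminogen activator, had the smallest p (-0.58 ± 0.65). The median of this list was -0.03, -0.03 and -0.56 in pigs 1, 2 and 3. Its genes averaged 8.81 on the 20 min array of pig 3 and 8.07 to 8.38 on the other arrays. In each of the 4 lists pig 3 had the lowest median change at 24 h.

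The second pattern lay between the pigs. This comparison, an F test of pig beside time in the same limma fit, was added after the values had been seen, and it compares 3 animals through 4 portions each. Of the 44 genes, 14 passed an adjusted p of 0.05 (31.8%, against 25.3% of all genes), which is near the share of genes at large. The count was 10 to 15 when 1 array was left out, 9 without the 2 h arrays and 8 without the 6 h arrays. Pig means more than 2-fold apart were found for 3 genes, THBS2, ADAMTS1 and THBS1 (6.82%, against 1.66% of all genes).

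THBS2, thrombospondin 2, a regulator of collagen fibril assembly, had the widest gap. It read 5.50, 6.10, 6.47 and 6.27 in pig 1, 5.94, 5.66, 5.38 and 5.64 in pig 2, and 9.39, 9.28, 9.29 and 8.63 in pig 3. Every array of pig 3 lay above all 8 of the other pigs, with pig means of 6.09 ± 0.42, 5.66 ± 0.23 and 9.15 ± 0.35 (SD over 4 times), an 11.2-fold gap between the extremes. Only 1 probe set reports THBS2 here. ADAMTS1 pig means were 6.54 ± 0.24, 8.14 ± 0.13 and 8.31 ± 0.43, a 3.42-fold gap, and its second probe set gave 6.72, 8.02 and 8.10. For ADAMTS1 and THBS1 the low animal was pig 1, the same that had the high spike-in controls, and the part of that in the gap was not tested. In THBS2 the pig with the high controls lay beside pig 2.

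**Figure D3:**
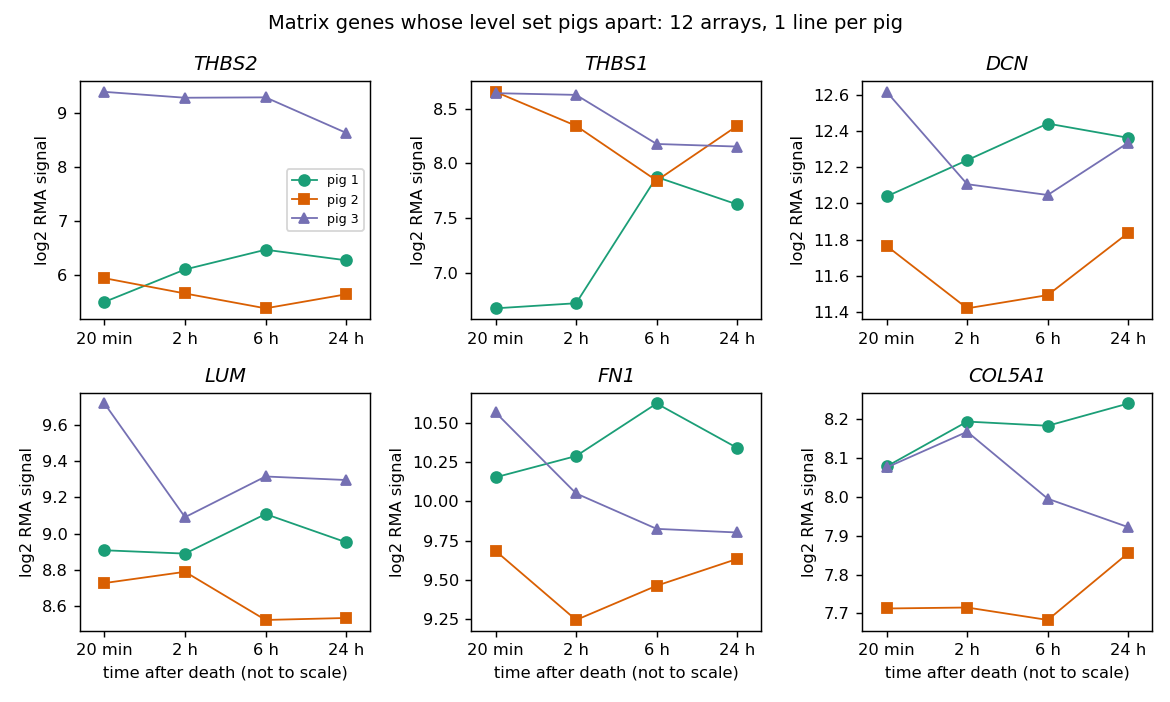
Log2 RMA signal (vertical axis) of THBS2, THBS1, DCN, LUM, FN1 and COL5A1 by time after death (horizontal axis, not to scale), with 1 line per pig. THBS2 in pig 3 stays between 8.63 and 9.39 while the other pigs stay between 5.38 and 6.47, and in DCN, LUM, FN1 and COL5A1 the line of pig 2 runs below the others at every time.

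In 9 of the 44 genes all 4 arrays of pig 2 lay below all 8 of pigs 1 and 3 (20.5%, against 4.92% of all genes). These were COL15A1, LUM, DCN, COL5A1, FN1, SPARC, COL1A2, FBN1 and COL8A1, all of them among the 29 structural and matricellular members. The other 20 of these 29 did not have all arrays of pig 2 lowest. COL4A2 had its highest pig mean in pig 2 (10.11, against 9.77 in pig 1 and 9.94 in pig 3), and pig means of COL3A1, COL2A1 and LOX lay close together. Other probe sets of the 9 genes did not all follow the brightest (means in order of pigs 1, 2 and 3). Pig 2 was also lowest in the next probe set of FBN1 (8.63, 8.03 and 8.47) and COL5A1 (7.72, 7.12 and 7.50). It was highest in that of COL8A1 (5.99, 6.14 and 6.13) and SPARC (6.50, 6.53 and 6.40), and in a dim one of DCN. In the next ones of COL1A2 and FN1, both dim, pig 2 lay between the other pigs. Of the 15 proteases and inhibitors 9 were among the dimmest 40%, where none of the 9 genes with pig 2 lowest lay, and a difference between the classes was not tested. MMP2, one of the 6 brighter ones, also had its lowest mean in pig 2 (8.14, against 8.45 and 8.43). Among the 30 members above the dimmest 40%, the 9 genes were 30% (against 5.87% of all genes above it). With any 1 array left out the count was 9 to 12, and the share of all genes was 5.03% to 7.97%. Leaving out an array can only keep or raise such a count, so this range does not test it. The reverse was found for 1 gene, TIMP2, in which all arrays of pig 2 lay above the others (2.27%, against 3.74%). A second TIMP2 probe set had means of 9.54, 9.34 and 9.52 in pigs 1, 2 and 3, lowest in pig 2, so the direction depended on the probe set. The gaps were modest: pig means of FN1 were 10.35 ± 0.20, 9.51 ± 0.20 and 10.06 ± 0.35, a 1.80-fold range. DCN had 12.27 ± 0.18, 11.63 ± 0.20 and 12.28 ± 0.26, a 1.57-fold range, and SPARC had a 1.33-fold range.

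Some fibroblast markers were also lowest in pig 2. In 3 of the 10 markers, THY1, FAP and DPT, all arrays of pig 2 lay below the others (30%, against 4.92% of all genes). The list averaged 8.04, 7.76 and 8.15 in pigs 1, 2 and 3. Individual markers on the 12 arrays did not all follow, since the lowest pig mean was in pig 2 for 7 of 10. The share of all genes with the lowest mean in pig 2 was not counted. In whole-muscle RNA, fewer fibroblasts, less RNA per fibroblast and a larger share of other cells cannot be told apart. Muscle fibre markers averaged 13.40, 13.47 and 13.44 in the same pigs. Endothelial (7.25, 7.54 and 7.36), smooth muscle and pericyte (9.78, 10.05 and 9.91) and erythroid markers (6.13, 6.60 and 6.19) were also highest in pig 2. Macrophage and leukocyte (6.66, 6.45 and 6.43) and adipocyte markers (7.02, 7.11 and 7.23) were not. The part of connective tissue, vessels or blood in each portion was not tested.

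**Figure D4:**
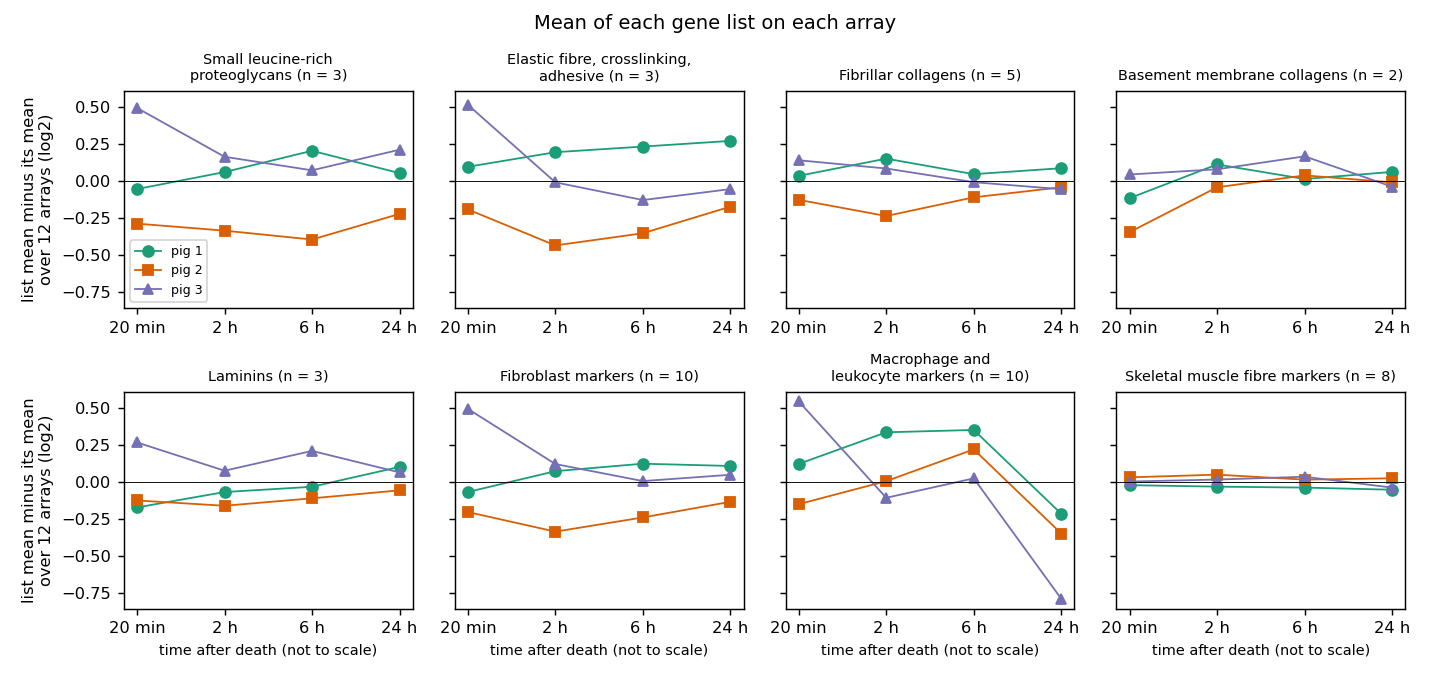
Mean of each gene list on each array minus its mean over the 12 arrays (log2, vertical axis) by time after death (horizontal axis, not to scale), with 1 line per pig. Matrix lists hold the members above the dimmest 40% of probe sets, n being the number of genes. The proteoglycans, elastic fibre and adhesive genes and fibroblast markers share a high point in pig 3 at 20 min and a low line for pig 2, and muscle fibre markers stay near 0.

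The 20 min array of pig 3 carried the highest reading of the 12 arrays for 11 of the 44 genes (25%, against 17.7% of all genes). They were ADAMTS1, FBN1, COL1A2, LAMC1, LAMB1, THBS2, THBS3, POSTN, MMP2, DCN and LUM. Fibroblast markers had their highest reading there in 7 of 10. The list of FBN1, FN1 and LOX averaged 9.35 on that array and 8.70 to 8.82 on the later arrays of pig 3, although LOX itself was not highest there. Nor were all role lists, taken over their brighter members. Basement membrane collagens averaged 9.91 there and 10.03 at 6 h in pig 3. Other collagens averaged 7.69 there and 7.80 at 2 h, and metalloproteinases 7.14 and 7.16. The remaining role lists had their highest pig 3 reading on that array. For the EF1A control, the signal of the 3′ probe set exceeded that of the 5′ probe set by 0.23 there, the smallest of the 12 arrays, and 0.44 to 0.70 later in that pig. Macrophage and leukocyte markers averaged 7.06 on it and 5.72 at 24 h in the same pig. The part of tissue composition or RNA quality in the high readings of this array was not tested.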

How the data were processed

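Total RNA of each portion was extracted, labelled with biotin and hybridised to 1 porcine array, per the labels' protocols. The submitters' processing notes name RMA and affy, with which the authors made the deposited log2 values. RMA subtracts background, gives every array the same distribution and sums up the probes of a set, so a change shared by all transcripts would not show. Tool versions and parameters are not given in the sources that were used. Precision is limited by the number of arrays.

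The table held 24123 probe sets, of which 124 controls stayed out of the tests. Gene names came from a 2016 annotation (10099 probe sets with 1 symbol, 198 with several, 13826 with none), and all 44 members matched the RefSeq gene table of Sscrofa11.1. No coordinates or sequences were used. Time and pig, taken from the titles, entered a limma 3.58.1 fit (R 4.3.3, statmod 1.5.0) of all 12 arrays with pig as a fixed block. The p-values were two-sided and adjusted by Benjamini-Hochberg over 23999 probe sets in each of 5 comparisons and in F tests. Errors are SDs of the within-pig changes over 3 pigs. The p-values rest instead on the spread between portions that is left after time and pig are fitted. That spread is pooled over the 4 times and drawn towards a value shared by all probe sets, so the p-values do not derive from these SDs. The same pigs were sampled at each time per the series' design text, and deviations from the time means correlated at 0.41 to 0.66 in the 18 pairs of arrays of 1 pig. The fit was also run on simulated data with independent noise. Its recovery rule looked only at planted changes larger than any change over time of the 44 genes. It therefore does not show how often changes of their size would be found.

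Genes named were, per role, the 2 with the highest mean, per comparison with 20 min the 5 with the smallest p, any past the threshold, and the 5 with the largest range of pig means. In other lists the gene with the smallest p was named, and other names are given for small counts or were chosen after their values were seen. Members, roles and lists were chosen with earlier results of these data known. Alternatives were other blocks, filters, normalisations, priors and probe set rules, and samples left out.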

Additional observations from a re-analysis of the deposited data

How the results depend on the processing

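Counts over all probe sets were small and moved easily. Without the replicate block, or with pig as a random replicate block, 0 probe sets passed at 24 h against 20 min and 0 at any time, against 1 and 1 as reported. At any time 0 also passed without the dimmest 40%, with cyclic loess and with centring on the 1000 brightest probe sets. From only the arrays of the 2 times compared, 0 passed at 24 h against 20 min and 4 at 24 h against 6 h. With 1 pig or array left out, 0 to 40 passed at 24 h, 0 to 46 at 6 h and 0 to 29 at 2 h against 20 min, 0 to 9 at 24 h against 6 h, and 0 to 4 at any time. The highest of the first 3 came without the 20 min array of pig 1. In these fits 0 of the 44 matrix genes passed, of which 30 were tested without the dimmest 40%. The median change of the members from 6 h to 24 h, 0.04, became -0.012 without the dimmest 40%. Between pigs, 10 to 15 members passed with 1 array left out, 9 without all 2 h arrays and 8 without all 6 h arrays. The cause was not tested.

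Of 780 recomputed changes of named genes, 55 turned in sign. None of the named genes had passed the adjusted threshold as reported, so no passing change was there to turn. At 24 h cyclic loess gave 0.0092 for LAMC1, 0.026 for LAMB2 and 0.0051 for MMP2. The mean of all probe sets gave -0.048 for DCN and -0.21 for LOX. With 1 pig or array left out, the ranges at 24 h that crossed 0 were -0.012 to 0.15 for COL5A1, -0.11 to 0.19 for COL4A2, -0.17 to 0.21 for DCN and -0.40 to 0.32 for THBS1. They were -0.11 to 0.25 for ADAMTS20, -0.024 to 0.13 for SPARC, -0.048 to 0.075 for TIMP2, -0.00029 to 0.082 for LOX and -0.53 to 0.24 for THBS2. They were -0.098 to 0.021 for COL3A1, -0.18 to 0.059 for COL6A3, -0.095 to 0.093 for LAMC1 and -0.15 to 0.14 for LAMB2. For FBN1, FN1 and MMP2 they were -0.46 to 0.14, -0.45 to 0.068 and -0.15 to 0.17.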
